A study of Mus musculus with 11 samples.

Results

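The mitotic spindle and cytokinesis genes are a set of 45 named genes that build, drive and resolve the mitotic spindle and then cut the dividing cell apart. They were taken by name, and each gene was read from its brightest probe set, by the mean of the 11 arrays. Of the 45, 43 had a probe set assigned to a single gene among the 22180 genes measured, and Ccnb1 and Ncapg, which had none, were not analysed here. The arrays, of the Affymetrix type, held total RNA of hematopoietic stem cells (HSCs), the cells at the top of the blood hierarchy, sorted by FACS from injected mice. The groups were RApIC (all trans retinoic acid and then polyIC, 3 arrays), pIC (polyIC, 2 arrays), ATRA (all trans retinoic acid, 3 arrays) and PBS (the buffer control, 3 arrays). All trans retinoic acid is the active form of vitamin A, and polyIC is a synthetic RNA that mimics viral RNA and thereby induces interferon. The labels and design text used here state no strain, genotype, age, dose, interval before the sort or sort gate. They do not say that replicates came from separate mice, so a p-value here reflects the spread between samples that may differ for technical reasons alone.

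In a resting cell most of these genes are silent. They are transcribed together late in the cell cycle, from G2 into mitosis, so their RNA marks cells that are preparing to divide or dividing. Adult HSCs mostly rest in G0, and interferon is known to bring them into cycle. In bulk RNA, fewer cycling cells and less of such RNA per cell cannot be told apart.

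Many mitotic promoters carry a CHR element, bound by MuvB complexes, beside CCAAT boxes, bound by NF-Y. The promoters below, from RefSeq on GRCm38.p6 and running from 250 bases before to 50 after the annotated start, show this layout in genes on which the results turn. Capitals mark CHR (TTTGAA or TTCGAA) and CCAAT, on either strand. The first 4 belong to members with their highest mean in pIC, Kif23 is the member that departed most from the rest, and Cenpe lacks the CHR letters although it had one of the largest differences.
Ccnb2, chr9:70421505-70421804, minus strand: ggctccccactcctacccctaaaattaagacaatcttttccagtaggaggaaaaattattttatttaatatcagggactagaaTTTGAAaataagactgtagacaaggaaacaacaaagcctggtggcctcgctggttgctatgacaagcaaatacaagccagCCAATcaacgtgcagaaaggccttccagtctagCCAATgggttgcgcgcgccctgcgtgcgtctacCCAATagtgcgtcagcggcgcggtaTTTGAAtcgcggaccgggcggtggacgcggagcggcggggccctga
Cdk1, chr10:69352863-69353162, minus strand: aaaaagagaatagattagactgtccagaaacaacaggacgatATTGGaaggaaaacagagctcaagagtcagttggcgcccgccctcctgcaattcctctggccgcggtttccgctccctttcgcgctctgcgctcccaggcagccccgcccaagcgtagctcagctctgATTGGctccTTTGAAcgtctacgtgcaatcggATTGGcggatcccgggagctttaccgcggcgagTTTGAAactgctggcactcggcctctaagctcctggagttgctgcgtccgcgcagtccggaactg
Cdc20, chr4:118437294-118437593, minus strand: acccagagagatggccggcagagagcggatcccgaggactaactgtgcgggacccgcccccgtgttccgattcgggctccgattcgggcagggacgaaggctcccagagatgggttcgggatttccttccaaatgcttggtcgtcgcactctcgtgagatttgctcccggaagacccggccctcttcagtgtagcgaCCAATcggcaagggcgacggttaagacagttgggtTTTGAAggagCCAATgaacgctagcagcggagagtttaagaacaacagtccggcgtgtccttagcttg
Plk1, chr7:122159185-122159484, plus strand: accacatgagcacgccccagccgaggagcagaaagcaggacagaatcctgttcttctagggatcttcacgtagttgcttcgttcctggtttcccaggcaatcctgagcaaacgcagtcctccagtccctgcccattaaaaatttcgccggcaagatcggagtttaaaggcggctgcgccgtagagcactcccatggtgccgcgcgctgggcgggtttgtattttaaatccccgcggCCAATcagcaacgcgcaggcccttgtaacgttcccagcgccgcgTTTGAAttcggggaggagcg
Kif23, chr9:61946750-61947049, minus strand: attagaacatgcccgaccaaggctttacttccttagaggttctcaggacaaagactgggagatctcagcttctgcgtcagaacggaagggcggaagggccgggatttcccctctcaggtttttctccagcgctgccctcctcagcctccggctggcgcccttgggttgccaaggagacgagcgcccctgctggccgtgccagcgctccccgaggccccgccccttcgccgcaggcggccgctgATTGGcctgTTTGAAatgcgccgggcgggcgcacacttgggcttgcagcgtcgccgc
Cenpe, chr3:135212313-135212612, plus strand: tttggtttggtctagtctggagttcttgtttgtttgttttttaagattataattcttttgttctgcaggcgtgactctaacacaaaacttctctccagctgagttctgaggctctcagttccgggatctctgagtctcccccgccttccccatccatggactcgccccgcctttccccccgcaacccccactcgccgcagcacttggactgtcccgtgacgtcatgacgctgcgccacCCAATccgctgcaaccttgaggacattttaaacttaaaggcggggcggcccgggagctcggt

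A promoter was at hand for 37 of the 43 measured members. CHR letters were in 31 of the 37 (83.8%), against 17.3% of the 16918 genes with a promoter, and within 50 bases of the start in 27 (73%), against 4.45%. CCAAT was in 26 (70.3%), against 38.4% of all, and both motifs stood together in 25 (67.6%), against 7.08%. The promoters of 31 DNA replication and S phase genes held CCAAT in 58.1%, CHR letters in 25.8% and both in 16.1%. The E2F letters searched (TTTCCCGC or TTTGGCGC, both strands) were in 2 members (5.41%), against 2.18% of all promoters and 32.3% of the DNA replication promoters. No motif searched contains another. The 6 members without CHR letters were Birc5, Cenpe, Cit, Mad2l1, Nuf2 and Nusap1. These 6 had a median difference of 0.61 log2 units between RApIC and ATRA, and so did the 31 with CHR. Between pIC and PBS the medians were 0.42 without CHR letters and 0.45 with them. A match is a description of letters and not a measured site.

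Array medians ran from 6.19 to 6.28 over all probe sets and from 6.53 to 6.64 over the 22180 genes (log2), and the number of arrays limits the precision of every value. The RApIC and pIC arrays had the interferon mark: Isg15, an interferon-induced ubiquitin-like protein, read 12.03, 10.35 and 11.70 on the RApIC arrays, 12.02 and 11.90 on the pIC arrays, 8.21, 8.52 and 8.16 on the ATRA arrays and 8.70, 8.20 and 8.48 on the PBS arrays. Dhrs3, a retinoid-reducing enzyme induced by retinoic acid, read 10.74, 11.12 and 10.74 with RApIC, 9.83 and 9.94 with pIC, 10.92, 11.41 and 11.30 with ATRA and 9.0, 9.43 and 9.03 with PBS. The pIC arrays, without retinoic acid, also lay above PBS in Dhrs3. Scored over 4 retinoic acid targets (Dhrs3, Cyp26b1, Rarb and Tgm2) as the median log2 value minus the PBS mean, the arrays read 0.05, 0.59 and 0.40 with RApIC, -0.08 and -0.27 with pIC, 1.17, 1.92 and 1.53 with ATRA and -0.03, 0.23 and -0.18 with PBS. RApIC replicate 1 thus lay within the PBS range. Between RApIC and PBS, Dhrs3 and Tgm2 rose, while Rarb differed by 0.06 ± 0.25 (adjusted p = 0.93) and Cyp26b1 by 0.12 ± 0.32 (adjusted p = 0.896). RApIC replicate 2 stood apart: on the first principal component, with 56% of the variance, it lay at -4.53, and the other RApIC arrays at 35.8 and 23.3. ATRA replicate 1 stood apart in neutrophil markers: Elane, a neutrophil granule protease, read 10.08 on it and 6.48 on each of the other ATRA arrays. Of 14 measured HSC markers, 13 were above the median over genes on all arrays, the exception being Gprc5c.

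All 43 members had their lowest group mean in ATRA, and 42 had their highest in pIC. The exception to the second was Kif23. Among all 22180 genes, 26.6% had their lowest mean in ATRA and 35.8% their highest in pIC. The order pIC, RApIC, PBS, ATRA from high to low held for 39 of 43 members and for 12.4% of all genes. Spc25, Nusap1 and Ect2 had PBS above RApIC, and Kif23 ran PBS, RApIC, pIC, ATRA. In 36 members every ATRA array lay below every other array, a pattern of 2.32% of all genes. Of 36 measured DNA replication and S phase genes, whose products copy the genome before mitosis, 7 (19.4%) had it. Those 36 genes otherwise shared much of the course: 86.1% had their lowest mean in ATRA, 91.7% their highest in pIC and 75% the same full order. Both pIC arrays lay above all others in 60.5% of the mitosis genes, 66.7% of the DNA replication genes and 10.7% of all genes.

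Scored as the median over the members of the log2 value minus the gene's PBS mean, the RApIC arrays had 0.24, 0.16 and 0.26, the pIC arrays 0.45 and 0.44, the ATRA arrays -0.26, -0.41 and -0.49 and the PBS arrays -0.04, 0.04 and 0.02. The 4 groups did not overlap in this score, and its pooled SD within groups was 0.073. Above their PBS mean stood 36, 36 and 37 members on the RApIC arrays, 41 and 42 on the pIC arrays, 2, 1 and 0 on the ATRA arrays and 17, 28 and 26 on the PBS arrays. RApIC replicate 2, which stood apart on the first component, had the lowest score of the RApIC arrays, above all PBS arrays.

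**Figure D1:**
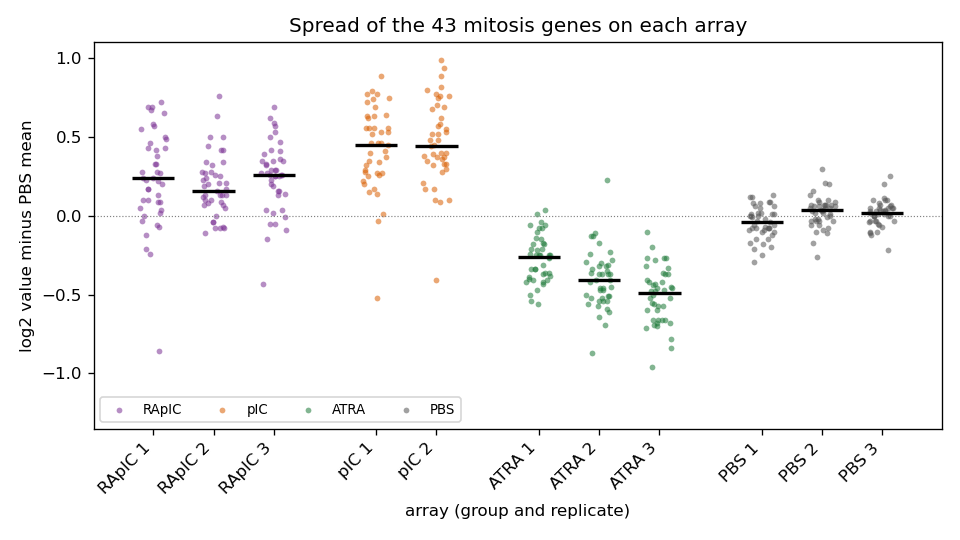
Each point is 1 of the 43 mitosis genes on 1 array, as the log2 value minus that gene's PBS mean (vertical axis), with the arrays by group along the horizontal axis. The black bar is the median over the genes. The bars sit at 0.24, 0.16 and 0.26 on the RApIC arrays, 0.45 and 0.44 on the pIC arrays, -0.26, -0.41 and -0.49 on the ATRA arrays and near 0 on the PBS arrays.

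The comparison of RApIC with ATRA asked what polyIC did in mice that had received retinoic acid. Mitotic genes rose almost throughout, by up to 1.03 log2 units. Of the 43 members 39 rose and 0 fell at a limma adjusted p under 0.05 over all genes, where 3.5% of all genes rose and 3.71% fell. The median difference was 0.61 (range 0.07 to 1.03), beside a median of 0 over all genes. The 4 that did not pass were Bub1, Cdc25c, Ckap2 and Kif23. Values on the RApIC arrays lay above all ATRA values for 42 members, against 11.7% of all genes, the exception being Kif23. The count of members that rose was 15 with only the RApIC and ATRA arrays in the fit, where 0.663% of all genes rose. It was 20 without RApIC replicate 3, and 19 members passed in all 11 fits that left out 1 array.

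The comparison of pIC with PBS asked the same in mice without retinoic acid. Mitotic genes rose here too, by up to 0.84, with Plk1, Cenpe, Cdc25c and Nuf2 in front. Of 43 members 27 rose and 0 fell, where 8.94% of all genes rose and 5.75% fell, and the median difference was 0.45 (range -0.46 to 0.84). Under cyclic loess scaling 6.53% of all genes rose and 6.86% fell, and 18 members rose. In 38 members both pIC values lay above all PBS values, against 23.4% of all genes, and in Kif23 they lay below, as in 19.6% of all genes. With 2 pIC arrays the count depended on single arrays, and it fell when either pIC replicate was left out. A fit with 1 pIC array has no spread within that group, so its count is not given here. The median of the members stayed at 0.44 to 0.47 in every fit that left out 1 array. The count was 17 when either PBS replicate 1 or PBS replicate 3 was left out, where 5.67% and 7.11% of all genes rose. Fewer of all genes rose without either pIC replicate or either of these PBS replicates than in the fit of all arrays. Cenpe and Cenpf passed in all 11 fits that left out 1 array.

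The comparison of ATRA with PBS asked what retinoic acid did to HSCs of otherwise unstimulated mice. All 43 members had a lower mean with ATRA, with a median difference of -0.40 (range -0.64 to -0.12), but limma called 0 of 43, where 0.00451% of all genes rose and 0% fell. The smallest adjusted p was 0.0583, for Ect2. At an unadjusted p under 0.05, 37 members were lower, against 3.51% of all genes, and in 37 members the ATRA values lay below all PBS values, against 6.08% of all genes. Leaving out RApIC replicate 2 gave 2 members that fell, Ect2 and Plk1. Leaving out ATRA replicate 1 gave 1, Hmmr, where 0.00451% of all genes fell.

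The comparison of RApIC with pIC asked whether prior retinoic acid altered the reading after polyIC. The members were lower in RApIC in 42 of 43 cases, the exception being Kif23, with a median difference of -0.22 (range -0.57 to 0.06). Limma called 0 of 43, as it called 0% of all genes in either direction, and 15 members were lower at an unadjusted p under 0.05, against 6.54% of all genes. RApIC values lay below both pIC values for 26 members, against 17.4% of all genes. A missed threshold with 3 and 2 arrays does not show that the groups are alike.

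Averaged over both backgrounds (ATRA minus PBS and RApIC minus pIC), the retinoic acid difference had a median of -0.30 over the members and was below 0 in all 43. Limma called 1 member, Ect2 (-0.45 ± 0.06, SE, adjusted p = 0.0436), where 0.0361% of all genes rose and 0.00451% fell, and Ect2 was not called in any of the 11 fits that left out 1 array. At an unadjusted p under 0.05, 38 members were lower, against 6.51% of all genes. The interaction, which tests whether that difference was unlike after polyIC and without it, was called for 0 of 43 members (0% of all genes in either direction), with 6 higher at an unadjusted p under 0.05, against 2.38% of all genes. Its median was 0.16, its largest value 0.54, and its smallest adjusted p 0.742, shared by Kif2c and Mki67. These averages share their arrays with the pairwise comparisons.

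The comparison of RApIC with PBS set both treatments against neither. For most members these were the 2 middle groups. Cenpe (0.58 ± 0.10, 1.49-fold, adjusted p = 0.0169) and Kif2c (0.48 ± 0.09, 1.39-fold, adjusted p = 0.0176) rose, and 0 of 43 fell, where 1.61% of all genes rose and 1.51% fell. The median difference was 0.22 (range -0.40 to 0.60), 39 of 43 members were higher, and 20 had RApIC values above all PBS values, against 9.82% of all genes. The count was 17 up with array weights, where 7.1% of all genes rose. Those weights were 0.647, 0.366 and 4.19 for RApIC replicates 1, 2 and 3, so replicate 3 counted most. With only the RApIC and PBS arrays in the fit the count was 0, where 0.14% of all genes rose. Without RApIC replicate 2 it was 11 up (Ccnb2, Cdc20, Cenpe, Cenpf, Kif20a, Kif20b, Kif2c, Plk1, Smc2, Tpx2 and Ttk) and 1 down (Kif23). It was 0 up without PBS replicate 1, PBS replicate 2 or RApIC replicate 3, and 1 without PBS replicate 3 (Cenpe) or RApIC replicate 1 (Nuf2). Of all genes 0.604%, 0.424% and 0.902% rose without PBS replicates 1, 2 and 3, and 0.582% without RApIC replicate 1. No share of all genes stands here beside the counts without RApIC replicate 2 or 3. A change in those counts is thus not told apart from a change in calls over all genes.

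**Figure D2:**
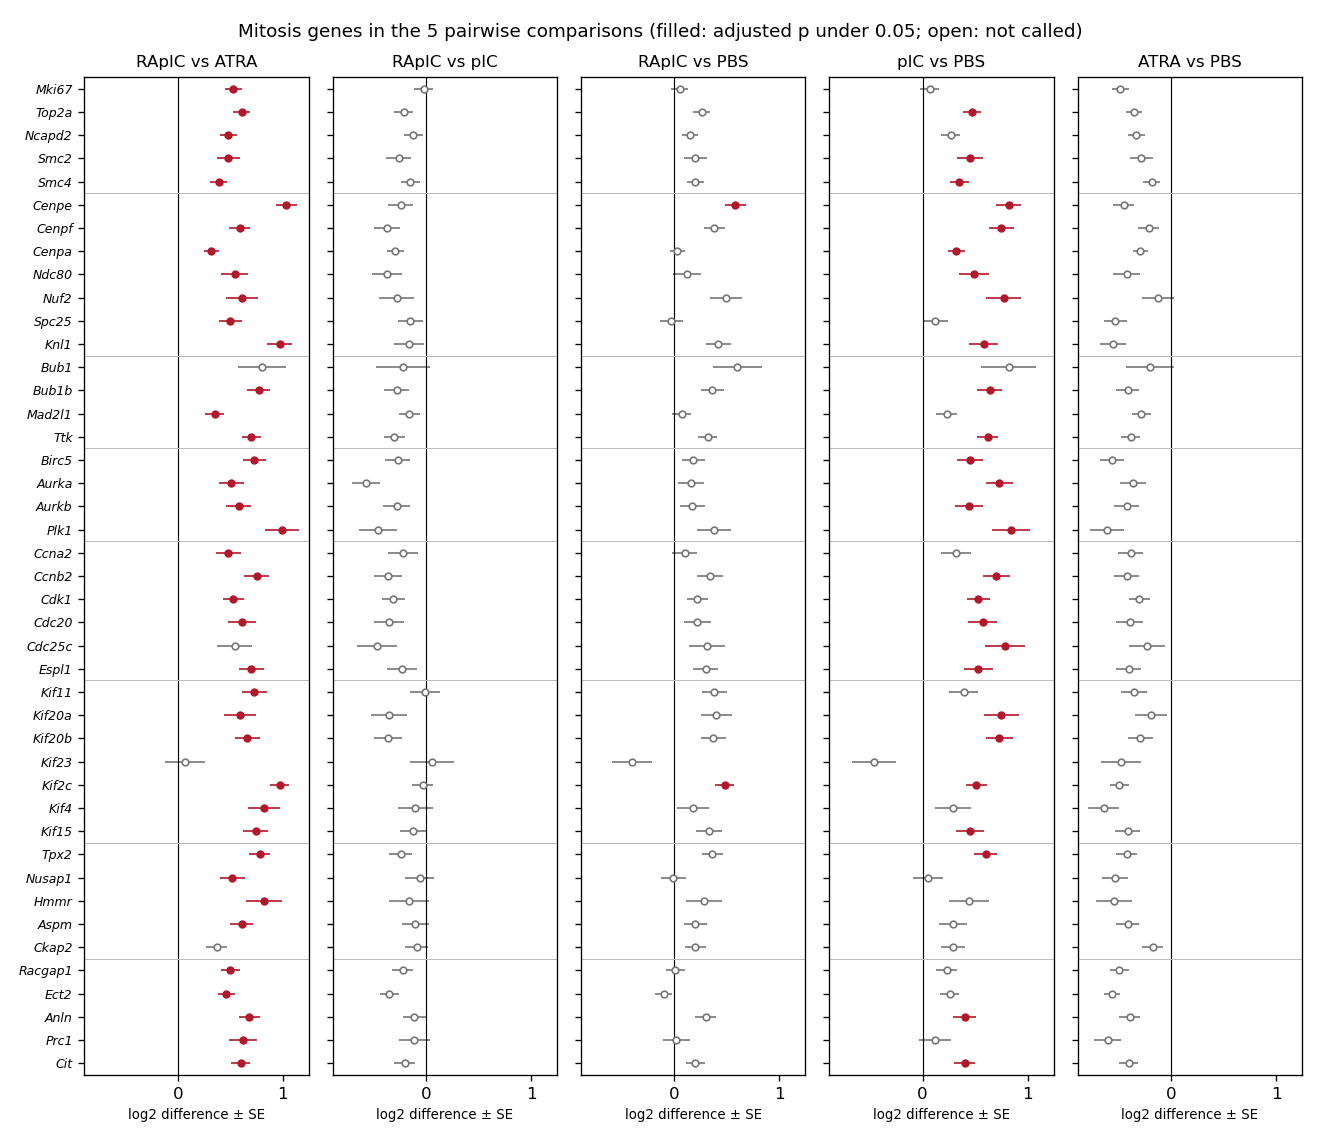
Points give the log2 difference ± SE (horizontal axes) of each of the 43 members in the 5 pairwise comparisons, with genes grouped by role down the page and filled points for an adjusted p under 0.05. Filled points number 39 for RApIC versus ATRA, 27 for pIC versus PBS and 2 for RApIC versus PBS, and all points for ATRA versus PBS lie left of 0.

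Kinetochore and centromere genes, which tie chromosomes to spindle microtubules, included the member with the largest rise. Between RApIC and ATRA all 7 rose, with a median of 0.59, and between pIC and PBS 6 of 7 rose, the exception being Spc25. Cenpe, a kinesin that carries chromosomes to the spindle equator, read 9.08, 8.81 and 9.01 on the RApIC arrays, 9.08 and 9.33 on the pIC arrays, 8.08, 7.87 and 7.87 on the ATRA arrays and 8.41, 8.30 and 8.46 on the PBS arrays. ATRA was lowest and did not overlap PBS, and all polyIC arrays were above both. Cenpe rose by 1.03 ± 0.10 (2.04-fold, adjusted p = 0.000921) between RApIC and ATRA and by 0.82 ± 0.12 (1.76-fold, adjusted p = 0.00273) between pIC and PBS.

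Knl1, the scaffold that docks checkpoint proteins at the kinetochore, read 9.90, 9.67 and 9.66 with RApIC, 9.96 and 9.86 with pIC, 8.92, 8.76 and 8.65 with ATRA and 9.08, 9.53 and 9.37 with PBS. Its PBS values spread widely but none reached the RApIC values. It rose by 0.97 ± 0.12 (adjusted p = 0.00241) between RApIC and ATRA. Cenpf, a large protein of the outer kinetochore, read 8.40, 8.10 and 8.11 with RApIC, 8.56 and 8.59 with pIC, 7.76, 7.45 and 7.62 with ATRA and 7.91, 7.76 and 7.79 with PBS. Here ATRA and PBS lay close, the highest ATRA value matching the lowest PBS value to the second decimal, and the pIC arrays were above all others. Cenpf rose by 0.75 ± 0.12 (adjusted p = 0.00359) between pIC and PBS. Among the parts of the Ndc80 complex, which grips the microtubule, Ndc80 and Nuf2 rose between pIC and PBS (0.49 ± 0.14 and 0.77 ± 0.17), while Spc25 differed by 0.12 ± 0.12 (adjusted p = 0.613). Cenpa, the histone that marks centromeres, rose by 0.32 ± 0.07 between RApIC and ATRA and by 0.32 ± 0.08 between pIC and PBS, in the first comparison the smallest of the 7.

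Checkpoint genes delay chromosome separation until every kinetochore is attached. Bub1b, which inhibits the anaphase-promoting complex, read 8.70, 8.54 and 8.67 on the RApIC arrays, 8.80 and 9.04 on the pIC arrays, 8.06, 7.69 and 7.86 on the ATRA arrays and 8.21, 8.25 and 8.38 on the PBS arrays. The 4 groups did not overlap. It rose by 0.77 ± 0.11 between RApIC and ATRA (adjusted p = 0.00349) and by 0.64 ± 0.12 between pIC and PBS (adjusted p = 0.00734). Ttk, the kinase that starts checkpoint signalling, rose by 0.70 ± 0.09 and 0.62 ± 0.10 in the same 2 comparisons. Bub1, the kinase that recruits checkpoint proteins, read 8.70, 8.47 and 8.72 with RApIC, 8.92 and 8.78 with pIC, 8.04, 8.26 and 7.19 with ATRA and 8.08, 7.77 and 8.23 with PBS. Its differences were among the largest (0.80 ± 0.23 and 0.82 ± 0.26) but passed neither test (adjusted p = 0.065 and 0.0579), and its ATRA values spread over more than 1 log2 unit. Mad2l1, which binds Cdc20 to hold anaphase, rose by 0.35 ± 0.09 (adjusted p = 0.0427) between RApIC and ATRA and differed by 0.23 ± 0.10 between pIC and PBS (adjusted p = 0.158).

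Mitotic kinases and survivin set the timing of spindle assembly and chromosome separation. All 4 members rose in both polyIC comparisons. Plk1, the Polo-like kinase needed for spindle poles and mitotic entry, read 10.58, 9.81 and 10.42 with RApIC, 10.68 and 10.78 with pIC, 9.39, 9.25 and 9.18 with ATRA and 9.91, 9.95 and 9.79 with PBS. RApIC replicate 2 lay within the PBS range, the other RApIC arrays lay above it, and all ATRA values lay below it. Plk1 rose by 0.99 ± 0.16 (1.99-fold, adjusted p = 0.00769) between RApIC and ATRA and by 0.84 ± 0.18 (1.79-fold, adjusted p = 0.0133) between pIC and PBS.

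Aurka, the kinase of the spindle poles, read 8.66, 8.17 and 8.48 with RApIC, 8.91 and 9.10 with pIC, 7.94, 7.98 and 7.85 with ATRA and 8.18, 8.35 and 8.31 with PBS. It had the largest difference between RApIC and pIC of all members, -0.57 ± 0.13, which did not pass (adjusted p = 0.259). Birc5 (survivin), which places Aurora B at centromeres and the spindle midzone, read 8.79, 8.72 and 8.88 with RApIC, 9.18 and 8.95 with pIC, 8.26, 8.10 and 7.84 with ATRA and 8.68, 8.59 and 8.59 with PBS. The 4 groups did not overlap. Birc5 rose by 0.73 ± 0.11 (adjusted p = 0.0054) between RApIC and ATRA, and Aurkb, its kinase partner, by 0.58 ± 0.12 (adjusted p = 0.016).

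Cyclins, Cdk1 and their regulators drive entry into mitosis and exit from it. Cdk1, the mitotic kinase itself, read 10.21, 10.45 and 10.34 with RApIC, 10.64 and 10.63 with pIC, 9.85, 9.82 and 9.75 with ATRA and 9.90, 10.21 and 10.21 with PBS. The pIC arrays were above all others and the ATRA arrays below, while RApIC met PBS at 10.21. Cdk1 rose by 0.53 ± 0.10 between RApIC and ATRA (adjusted p = 0.0129) and by 0.53 ± 0.11 between pIC and PBS (adjusted p = 0.0116). Ccnb2, a B-type cyclin that activates it, read 9.84, 9.40 and 9.82 with RApIC, 10.12 and 9.97 with pIC, 8.97, 8.94 and 8.88 with ATRA and 9.26, 9.44 and 9.35 with PBS. RApIC replicate 2 lay inside the PBS range and the other RApIC arrays above it. Ccnb2 rose by 0.75 ± 0.12 (adjusted p = 0.00594) and 0.70 ± 0.13 (adjusted p = 0.00728) in the same comparisons.

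Cdc20, which activates the anaphase-promoting complex, and Espl1 (separase), which cuts cohesin at anaphase, rose in both polyIC comparisons (Cdc20 by 0.61 ± 0.13 and 0.57 ± 0.14, Espl1 by 0.70 ± 0.12 and 0.53 ± 0.14). Cdc25c, the phosphatase that switches Cdk1 on, rose between pIC and PBS (0.78 ± 0.19, adjusted p = 0.0226) but did not pass between RApIC and ATRA (0.54 ± 0.17, adjusted p = 0.0868). It was the dimmest of the set: the only member not above the median over genes on all arrays. Ccna2, the cyclin of S phase and early mitosis, rose between RApIC and ATRA (0.48 ± 0.12, adjusted p = 0.0407) and differed by 0.32 ± 0.14 between pIC and PBS (adjusted p = 0.155).

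Kinesin motors slide, cross-link and shorten spindle microtubules. Kif2c, which depolymerises microtubules at centromeres, read 8.39, 8.35 and 8.50 with RApIC, 8.57 and 8.31 with pIC, 7.37, 7.52 and 7.43 with ATRA and 7.87, 8.0 and 7.93 with PBS. RApIC and pIC overlapped, and ATRA lay below PBS without overlap. Kif2c rose by 0.97 ± 0.09 between RApIC and ATRA, with the smallest adjusted p of the set (0.000567), and by 0.51 ± 0.10 (adjusted p = 0.00814) between pIC and PBS. Kif4, a chromosome-bound motor of the midzone, had the largest difference between ATRA and PBS, -0.64 ± 0.15 (adjusted p = 0.322). It read 7.98, 7.98 and 7.69 with RApIC, 7.90 and 8.07 with pIC, 7.27, 7.16 and 6.74 with ATRA and 7.55, 7.59 and 7.95 with PBS. Kif20a and Kif20b, motors of the midzone and midbody, rose by 0.75 ± 0.17 and 0.73 ± 0.13 between pIC and PBS. Kif11 and Kif15, which push spindle poles apart, rose by 0.73 ± 0.12 and 0.74 ± 0.12 between RApIC and ATRA, where 6 of 7 kinesins rose. Between pIC and PBS 4 of 7 rose, and Kif11 (0.39 ± 0.14, adjusted p = 0.091) was not among them.

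Kif23, a motor of the centralspindlin complex that builds the midbody, departed from the others. It read 8.48, 9.43 and 8.91 on the RApIC arrays, 8.82 and 8.93 on the pIC arrays, 8.98, 8.88 and 8.74 on the ATRA arrays and 9.46, 9.32 and 9.23 on the PBS arrays. Of the 8 arrays without PBS, 7 lay below every PBS array, and RApIC replicate 2 lay among the PBS arrays. The pIC and ATRA means were equal to the second decimal. The difference was -0.46 ± 0.21 between pIC and PBS (adjusted p = 0.184) and 0.07 ± 0.19 between RApIC and ATRA (adjusted p = 0.888). Racgap1, its partner in centralspindlin, did not share this course: it read 9.22, 9.37 and 9.33 with RApIC, 9.58 and 9.46 with pIC, 8.95, 8.83 and 8.63 with ATRA and 9.23, 9.32 and 9.32 with PBS.

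Spindle-associated proteins organise microtubules without being motors. Tpx2, which activates Aurora A, read 9.68, 9.48 and 9.66 with RApIC, 9.87 and 9.83 with pIC, 8.91, 8.93 and 8.65 with ATRA and 9.17, 9.23 and 9.35 with PBS. The 4 groups did not overlap. It rose by 0.78 ± 0.10 (adjusted p = 0.00238) between RApIC and ATRA and by 0.60 ± 0.11 (adjusted p = 0.00643) between pIC and PBS, the only one of 5 to rise in the second. Hmmr, a microtubule-binding protein of the spindle poles, rose by 0.82 ± 0.17 (adjusted p = 0.0176) between RApIC and ATRA, where ATRA replicate 1 (7.80) stood above the other ATRA arrays (6.97 and 7.15). Aspm, a spindle-pole protein, and Nusap1, which bundles microtubules near chromosomes, rose by 0.61 ± 0.11 and 0.52 ± 0.12 in that comparison, and Ckap2 narrowly missed the threshold (0.37 ± 0.10, adjusted p = 0.0508). Between pIC and PBS Nusap1 differed by 0.05 ± 0.14 (adjusted p = 0.868).

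Cytokinesis genes steer the cleavage furrow. All 5 rose between RApIC and ATRA (median 0.60), and 2 of 5, Anln and Cit, rose between pIC and PBS (median 0.26). Ect2, the exchange factor that switches on RhoA at the furrow, read 8.75, 8.83 and 8.72 with RApIC, 9.04 and 9.20 with pIC, 8.40, 8.33 and 8.19 with ATRA and 8.79, 8.88 and 8.92 with PBS. RApIC overlapped the lower PBS values. Ect2 rose by 0.46 ± 0.08 (adjusted p = 0.0106) between RApIC and ATRA and differed by -0.56 ± 0.08 between ATRA and PBS. Prc1, which bundles midzone microtubules, differed by -0.60 ± 0.13 between ATRA and PBS (adjusted p = 0.242) and by 0.12 ± 0.15 between pIC and PBS (adjusted p = 0.666). Racgap1 differed by -0.49 ± 0.09 between ATRA and PBS (adjusted p = 0.175). Anln, which anchors the contractile ring, and Cit, a kinase of the midbody, each rose by 0.40 between pIC and PBS (SE 0.11 for Anln and 0.10 for Cit).

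Chromosome structure genes compact and untangle chromosomes. Mki67, the coat of mitotic chromosomes and a common marker of proliferation, read 11.25, 11.41 and 11.32 with RApIC, 11.25 and 11.45 with pIC, 10.88, 10.78 and 10.73 with ATRA and 11.27, 11.33 and 11.25 with PBS. The RApIC, pIC and PBS arrays overlapped and the ATRA arrays lay apart below them. Mki67 rose by 0.53 ± 0.08 (adjusted p = 0.00585) between RApIC and ATRA, while it differed by 0.07 ± 0.09 between pIC and PBS (adjusted p = 0.701). Top2a, which untangles sister DNA, read 9.84, 9.93 and 9.86 with RApIC, 10.07 and 10.09 with pIC, 9.36, 9.30 and 9.13 with ATRA and 9.67, 9.60 and 9.58 with PBS. Its 4 groups did not overlap, unlike those of Mki67, and it rose by 0.47 ± 0.09 (adjusted p = 0.00696) between pIC and PBS. The condensin subunits, which compact chromosomes, rose in RApIC against ATRA by 0.48 ± 0.08 for Ncapd2, 0.48 ± 0.11 for Smc2 and 0.39 ± 0.08 for Smc4. Smc2 and Smc4 also rose between pIC and PBS, and Ncapd2 differed by 0.27 ± 0.09 (adjusted p = 0.0708).

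**Figure D3:**
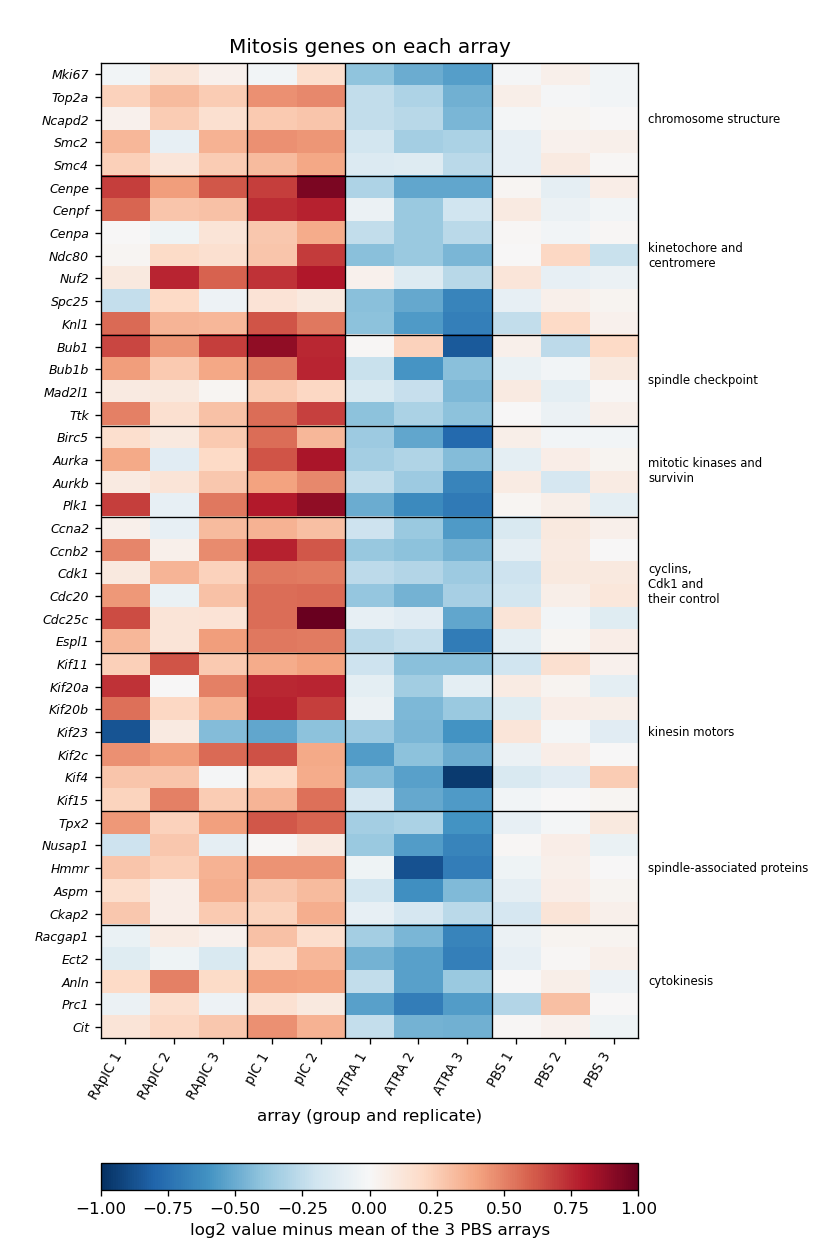
Colour gives each member's log2 value minus its PBS mean on each array (columns, by group), with the 43 genes in rows grouped by role. The ATRA columns are blue for nearly all genes and the pIC columns red, and Kif23 is blue on both pIC arrays.

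Of 75 other mitosis genes, 70 were measured. Between RApIC and ATRA 38 rose (median 0.50), where 3.5% of all genes rose. Between pIC and PBS 28 rose (median 0.41), where 8.94% of all genes rose. Between RApIC and PBS 3 rose (Ercc6l, Pmf1 and Ska3), where 1.61% of all genes rose. In each, 0 fell, and limma called 0 between ATRA and PBS (median -0.30, 40 at an unadjusted p under 0.05). Ska3, a part of the complex that holds kinetochores to shortening microtubules, rose by 0.99 ± 0.15 (adjusted p = 0.00332) between pIC and PBS and by 0.67 ± 0.13 (adjusted p = 0.0255) between RApIC and PBS. Kif22, a chromosome-arm motor, rose by 0.88 ± 0.10 (adjusted p = 0.00125) between RApIC and ATRA and differed by -0.59 ± 0.10 (adjusted p = 0.09) between ATRA and PBS. DNA replication and S phase genes had a like median between pIC and PBS (0.44, with 24 of 36 up). Between ATRA and PBS their median was -0.12, with 0 called and 5 of 36 at an unadjusted p under 0.05, beside -0.40 and 37 of 43 for the mitosis genes. Whether the lists differ was not tested. Of 16 genes of the anaphase-promoting complex and its regulators 1 rose in each polyIC comparison, a count near the share of all genes. It was the inhibitor Fbxo5, named after its values were seen (0.42 ± 0.06 between RApIC and ATRA and 0.39 ± 0.07 between pIC and PBS).

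Of 17 genes of mitotic transcription, 7 rose and 1 fell between pIC and PBS, where 8.94% of all genes rose and 5.75% fell. Between RApIC and ATRA 3 (E2f8, Foxm1 and Mybl2) rose and 1 fell, where 3.5% of all genes rose and 3.71% fell. Mybl2, the B-MYB factor that joins MuvB to activate mitotic genes, rose by 0.53 ± 0.09 (adjusted p = 0.00955) between RApIC and ATRA and by 0.64 ± 0.10 (adjusted p = 0.004) between pIC and PBS. It read 8.67, 8.82 and 8.82 with RApIC, 8.92 and 8.84 with pIC, 8.25, 8.32 and 8.14 with ATRA and 8.30, 8.06 and 8.35 with PBS, so ATRA and PBS overlapped. Foxm1, the forkhead activator of the same promoters, rose by 0.45 ± 0.11 (adjusted p = 0.0306) between RApIC and ATRA and differed by 0.22 ± 0.12 (adjusted p = 0.265) between pIC and PBS. Rbl2 (p130), a pocket protein of the repressing DREAM complex, fell by 0.53 ± 0.09 between pIC and PBS and by 0.43 ± 0.08 between RApIC and ATRA, the 1 fall in each. Rbl2 and E2f8 were named after their values were seen. Cdkn1c (p57), the inhibitor that holds HSCs in G0, fell by 0.91 ± 0.17 (adjusted p = 0.00664) between pIC and PBS and by 0.76 ± 0.15 (adjusted p = 0.0148) between RApIC and ATRA, and differed by 0.20 ± 0.15 between ATRA and PBS (adjusted p = 0.87). Of the 9 measured genes of a list of quiescence genes 2, Cdkn1c and Btg1, fell in both polyIC comparisons and 0 rose. Between pIC and PBS 6 of the 9 were lower and 3 higher, with a median of -0.12. Cdkn1a, an inhibitor in that list, read higher with pIC (9.21 and 9.20) than with PBS (8.46, 8.65 and 8.13) but was not called. It too was named after its values were seen. Over all genes 5.75% fell between pIC and PBS and 3.71% between RApIC and ATRA. Btg1, an antiproliferative gene, was named after its values were seen. It fell by 0.55 ± 0.08 between pIC and PBS and by 0.28 ± 0.07 between RApIC and ATRA.

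Markers of HSCs and of some other cell types also differed between groups, and their part in the result was not tested. Between pIC and PBS 8.94% of all genes rose and 5.75% fell, and between RApIC and ATRA 3.5% rose and 3.71% fell. Of 14 HSC markers 9 fell between pIC and PBS and 7 between RApIC and ATRA, with 0 up in each. Their mean log2 level ran from 8.79 to 9.27 over the RApIC arrays, 8.84 to 8.86 over the pIC arrays, 9.52 to 9.59 over the ATRA arrays and 9.51 to 9.55 over the PBS arrays. Of 10 erythroid markers 6 rose between pIC and PBS and 2 (Gata1 and Klf1) between RApIC and ATRA. Their mean level ran from 8.12 to 9.17 with RApIC, 9.44 to 9.56 with pIC, 8.28 to 8.33 with ATRA and 8.44 to 8.73 with PBS. As with the mitosis genes, the pIC arrays were highest and all ATRA arrays lay below all PBS arrays. Between ATRA and PBS the erythroid median was -0.26, with 9 of 10 markers lower and 0 called. Slc4a1, a red cell membrane protein, was below the median over genes on all arrays. On RApIC replicate 2 the erythroid score was -0.29, below all PBS arrays (-0.02, -0.17 and 0.12), while the mitosis score there was 0.16, above all PBS arrays.

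Between pIC and PBS, where 8.94% of all genes rose and 5.75% fell, 6 of 10 megakaryocyte and platelet markers were up and 1, Pf4, was down. Their mean level ran from 9.04 to 9.19 with RApIC, 9.19 to 9.20 with pIC, 8.52 to 8.64 with ATRA and 8.83 to 8.89 with PBS, so it was lowest with ATRA, as the mitosis genes were. Gp6, a platelet collagen receptor, was below the median over genes on all arrays. Of 14 T and NK cell markers 3 (Ccl5, Gzmb and Nkg7) rose between pIC and PBS. In 13 of the 14 the mean was higher with pIC. In 12 both pIC values lay above all PBS values, against 23.4% of all genes. The mean level of the 14 ran from 6.02 to 8.04 with RApIC, 7.18 to 7.58 with pIC, 6.10 to 6.42 with ATRA and 5.95 to 6.17 with PBS. Between RApIC and ATRA, where 3.5% of all genes rose, 1 of the 14 and 5 of the 10 megakaryocyte and platelet markers rose. Cd8a, Klrb1c and Ncr1 were below that median on all arrays. On RApIC replicate 2 the T and NK score was 0.05, within the PBS range of -0.06 to 0.06, where the mitosis score was 0.16.

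The mean level of 12 neutrophil markers ran from 6.15 to 6.45 with RApIC, 6.05 to 6.12 with pIC, 6.25 to 7.20 with ATRA and 6.05 to 6.19 with PBS. Between RApIC and ATRA 1 of them, Prtn3, fell, where 3.71% of all genes fell. The neutrophil score was 0.76 on ATRA replicate 1 and 0.02 and 0.07 on the other ATRA arrays, and ATRA replicate 1 also had the mitosis score nearest to PBS (-0.26, beside -0.41 and -0.49). Ngp, Camp, Ltf, Lcn2 and Mmp8 were below the median over genes on all arrays. Without ATRA replicate 1 the median of the mitosis genes was -0.46 between ATRA and PBS and 0.67 between RApIC and ATRA. In the latter 28 rose, against 1.44% of all genes.

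Of 12 monocyte, macrophage and dendritic cell markers 2, Mpeg1 and Fcgr1, rose in both polyIC comparisons. Over all genes 8.94% rose between pIC and PBS and 3.5% between RApIC and ATRA. Mpeg1 rose by 4.34 ± 0.67 between pIC and PBS and by 2.66 ± 0.60 between RApIC and ATRA. The mean level of the 12 markers ran from 6.32 to 6.73 with RApIC, 6.59 to 6.66 with pIC, 6.20 to 6.25 with ATRA and 5.98 to 6.16 with PBS. Csf1r, Adgre1, Ly86, Itgax, Siglech and Ccr2 were below the median over genes on all arrays. In the other marker lists few genes were called between pIC and PBS, where 5.75% of all genes fell. Cd48 and Cd53 (2 of 7 progenitor markers), Gzmb (1 of 8 mast cell markers, also a T cell marker) and Pdgfrb (1 of 8 stroma markers) rose. Tie1 (1 of 8 endothelial markers) fell. These did not stand for their lists: 7 of 8 stroma markers were lower with pIC and 5 of 8 endothelial markers higher. Of the mast cell markers 4 were higher and 4 lower, and of the progenitor markers 4 and 3. Between RApIC and ATRA, Cd48 rose and Emcn and Tie1 fell. Of 8 B cell markers 0 changed in either comparison at a limma adjusted p under 0.05, with 1 at an unadjusted p under 0.05 between pIC and PBS and 0 between RApIC and ATRA. The single markers named here were chosen after their values were seen.

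**Figure D4:**
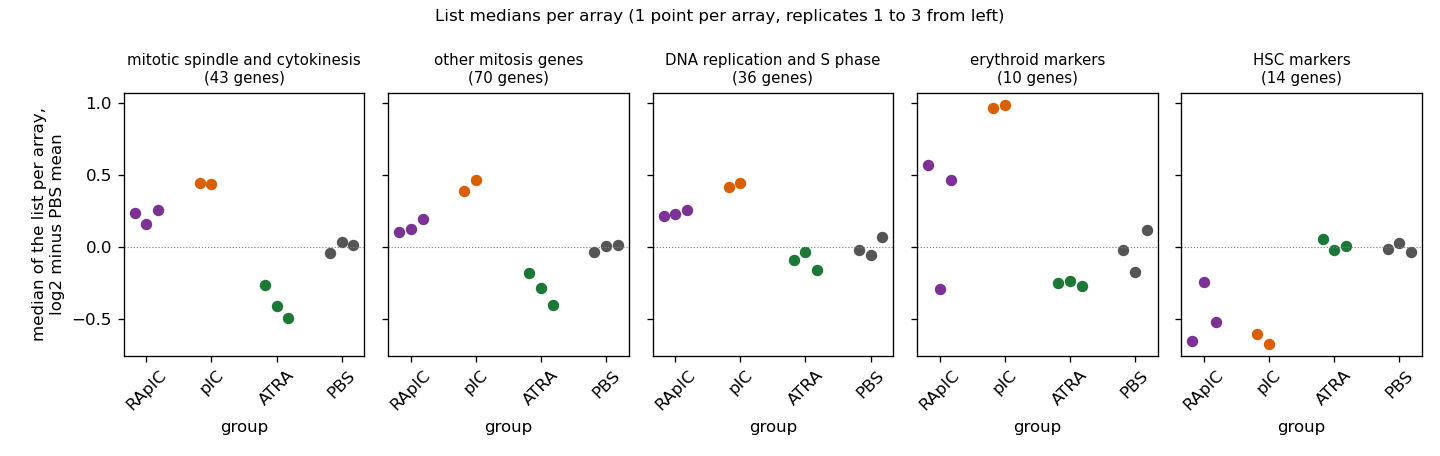
Points are arrays and the vertical axis is the median over a gene list of the log2 value minus the PBS mean, for 5 lists side by side with the groups along the horizontal axis. Mitosis genes sit at -0.26 to -0.49 on the ATRA arrays and DNA replication genes at -0.03 to -0.16, and the erythroid score of RApIC replicate 2 is -0.29.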

How the data were processed

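Biotin-labelled total RNA was hybridised, per the labels' protocols. The deposited table gives a log2 intensity for each of 41345 probe sets, and oligo 1.36.1, RMA and limma 3.28.20 are named per the submitters' processing notes. The genome build is not given in the sources used here. GEO's platform table gives 23521 probe sets 1 gene symbol and 1814 several, and 16010 are not listed in it and unnamed here. Each of 22180 genes was read from its brightest probe set (1082 had several).

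With limma 3.58.1 in R 4.3.3, 4 group means were estimated from all arrays (7 residual degrees of freedom), with two-sided tests and Benjamini-Hochberg adjustment over all genes per comparison, called at 0.05. It was run on simulated data with planted changes larger than nearly all differences of the members, so that run does not cover changes of their size. Differences are group means ± SE. The members and lists were chosen with earlier results of these data known. Values on every array were given for a fixed set and for up to 2 members per role with the smallest p, and some were left out. Alternatives were cyclic loess, leaving out the dimmest 40% of genes, array weights, a replicate block, averaging each gene's probe sets, only the groups compared, a trend and robust prior, and leaving out each array. Figures used Python 3.11.15, pandas 2.3.3 and matplotlib 3.10.9.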

Additional observations from a re-analysis of the deposited data

How the results depend on the processing

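Of 2445 values of named members set beside an alternative, 0 reversed a call, 73 lost it and 36 gained it. Only a value called in the main fit can lose its call, and in 3 of the comparisons 0 members were called. Of the losses 39 were in pIC versus PBS and 10 in RApIC versus ATRA. RApIC versus PBS, with 2 called members, had 11, and the averaged retinoic acid difference, with 1, had 13. Among values called in neither fit, 18 changed sign. Called members in RApIC versus PBS numbered 4 up without the dimmest 40% of genes, where 4.66% of all genes in the fit rose. They numbered 17 with array weights (7.1% of all genes) and 0 with only the groups compared (0.14%). RApIC versus pIC had 1 down with array weights (0.23% of all genes), and RApIC versus ATRA 15 up with only the groups compared (0.663%). In pIC versus PBS the median was 0.37 with cyclic loess, and 1 member fell with only the groups compared (5.73% of all genes). ATRA versus PBS had 1 down without the dimmest genes (0.0376% of all genes in the fit). It had 1 with array weights (0.0451%) and 2 with a trend and robust prior (0.0451%). The averaged retinoic acid difference had 0 down with cyclic loess (0% of all genes), 8 with array weights (0.289%) and 0 with the replicate block (0.00451%). Leaving out 1 array gave 0 to 11 up and 0 to 1 down for RApIC versus PBS. RApIC versus ATRA had 20 to 38 up. In pIC versus PBS the fits that kept both pIC arrays had 17 to 28 up and 0 to 1 down. ATRA versus PBS had 0 to 2 down, and the average 0 down. Median ranges were 0.55 to 0.67 for RApIC versus ATRA, -0.46 to -0.36 for ATRA versus PBS and 0.09 to 0.23 for the interaction. The causes were not tested. Same-numbered arrays correlated at -0.109 to 0.0976 after group means were removed, and differently numbered arrays at -0.143 to 0.114. These values do not settle whether the numbers pair the samples, and the main fit did not pair them. With the replicate block 36 members rose in RApIC versus ATRA (2.98% of all genes), 21 in pIC versus PBS (7.78%) and 2 in RApIC versus PBS (1.14%). The small number of arrays limits every count.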
